A study of Rattus norvegicus with 20 samples.

Results

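The 10 genes described here are markers of the interneurons of the striatum, Sst, Npy, Nos1, Chat, Slc5a7, Slc18a3, Pvalb, Lhx6, Th and Cort, measured in the nucleus accumbens, the ventral part of the rat striatum. They were taken by symbol from a count table of 17296 symbols, and all 10 were found in it. Of these, 9 passed the filter on low counts that left 12846 genes for testing, and Npy did not. RNA came from male Sprague-Dawley rats, labelled wild type and 7 to 9 weeks old, all of which self-administered cocaine, so that no group is free of the drug. The drink held antibiotics and short-chain fatty acids together in 5 rats (Abx_SCFA), fatty acids alone in 6 (SCFA), antibiotics alone in 4 (Abx) and nothing but water in 5 (H2O). The antibiotics were given to deplete the gut microbiome, whose fermentation yields such fatty acids. The question of the comparisons is how depletion, supplementation or both relate to the transcriptome of this region. Each library is treated as 1 rat, and cage mates, housed 2 to a cage, are not identified in the labels.

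Most striatal neurons are medium spiny projection neurons, and interneurons are a small minority of several types. Cholinergic interneurons make acetylcholine with choline acetyltransferase (Chat), retrieve choline with the high-affinity choline transporter (Slc5a7) and load vesicles with the vesicular acetylcholine transporter (Slc18a3). A GABAergic type makes the peptides somatostatin (Sst) and neuropeptide Y (Npy) together with neuronal nitric oxide synthase (Nos1), which produces the gas nitric oxide. Fast-spiking interneurons contain parvalbumin (Pvalb), a calcium-binding protein, and Lhx6 is a LIM homeodomain transcription factor of GABAergic interneurons born in the medial ganglionic eminence. Th, tyrosine hydroxylase, catalyses the rate-limiting step of catecholamine synthesis and marks a sparse GABAergic type in the striatum as well as dopamine neurons and their axons. Cort encodes cortistatin, a peptide related to somatostatin that is described mainly in interneurons of the cortex and hippocampus. The tissue holds all of these cells at once, so that in each result below fewer cells of a type and less RNA per cell cannot be told apart.

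Sequences from the promoters are shown for the genes whose levels moved together or that hold a common element. They come from RefSeq for the GRCr8 assembly, which all 10 symbols matched, and each window ran from 250 bases before to 50 bases after the start of transcription used in that table. The cAMP response element TGACGTCA, the binding motif of the factor CREB, was searched on both strands. It occurred in 612 of 33469 windows of that length, or 1.83%, and in 3 of the 10 members, Sst, Nos1 and Th. In the next stretches of 30 bases the element is in capitals. It begins at base 3 of the transcript in Sst, 9 bases before the start in Nos1 and 69 bases before it in Th. A match is a description of the letters only.
Sst, chr11:90461537-90461566, plus strand: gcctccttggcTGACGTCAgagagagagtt
Nos1, chr12:44371828-44371857, minus strand: tgacgccaagtTGACGTCAaagacagaggc
Th, chr1:207508269-207508298, minus strand: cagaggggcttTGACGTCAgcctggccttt

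The 3 cholinergic genes moved together in the libraries, as described below, and their last 100 bases before the start are printed for comparison. Capitals mark TATAAA, the core of the TATA box, which occurred in 14.2% of all windows and in the window of 1 member, Slc5a7. The motif TAATTA, bound by LIM homeodomain factors, was present in 5.36% of all windows and in 1 member, Sst. All motifs were searched on both strands, for presence in a window only. In the RefSeq table Slc18a3 lies wholly inside the Chat gene on the same strand, while Slc5a7 is on another chromosome. Reads of Slc18a3 and Chat therefore cannot be assigned with certainty, since no source used here gives the counting rules.
Chat, chr16:7723417-7723516, minus strand: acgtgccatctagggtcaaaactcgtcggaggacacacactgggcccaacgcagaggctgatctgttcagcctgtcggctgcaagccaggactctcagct
Slc18a3, chr16:7722815-7722914, minus strand: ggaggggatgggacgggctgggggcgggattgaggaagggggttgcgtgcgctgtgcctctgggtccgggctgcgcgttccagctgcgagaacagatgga
Slc5a7, chr9:7953510-7953609, minus strand: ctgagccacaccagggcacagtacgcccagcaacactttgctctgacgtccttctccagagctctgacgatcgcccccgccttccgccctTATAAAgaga

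Library totals lay between 17525358 and 25731636 counts, and levels are given in CPM, counts scaled to a common library size. CPM is not divided by transcript length, so levels of different genes are not ranked against each other. Drd1, a dopamine receptor gene of medium spiny neurons, was abundant, at 342 to 437 CPM in Abx_SCFA, 171 to 411 CPM in SCFA, 333 to 462 CPM in Abx and 321 to 511 CPM in H2O libraries. Several markers of cortical excitatory neurons varied far more, but not all did. The highest library held 3 times the lowest for Drd1, 343 times for Slc17a7 and 97.6 times for Neurod6. For Cux2 it was 4.21 times, for Nrgn 2.78, for Rorb 2.05 and for Lamp5 2.01. Slc17a7, which loads glutamate into vesicles of cortical neurons, had 132 to 339 CPM in Abx_SCFA, 74 to 1060 CPM in SCFA, 43.7 to 506 CPM in Abx and 3.09 to 252 CPM in H2O libraries. SCFA replicates 2 and 5 stood apart, with the highest Slc17a7 of all libraries at 695 and 1060 CPM and Drd1 at 208 and 171 CPM. The summed level of 11 cortical markers had medians of 981 CPM in Abx_SCFA, 1100 CPM in SCFA, 1220 CPM in Abx and 725 CPM in H2O libraries. It ranged over 792 to 1450 CPM in Abx_SCFA, 672 to 2730 CPM in SCFA, 723 to 1680 CPM in Abx and 578 to 1090 CPM in H2O libraries. In H2O libraries the sum was mostly Nrgn and Lamp5, with means of 520 and 117 CPM beside 61.1 CPM for Slc17a7. In SCFA libraries these means were 662, 97 and 408 CPM. Lamp5 is also on the list of other GABAergic interneuron classes used below, so the sum is not a measure of cortical neurons alone. Of the 11 markers only Neurod1 was at 0 in any library. Values in comparisons with the SCFA group are also given without SCFA replicates 2 and 5 where these libraries move them. The rat numbers in the library titles fall into series, with all SCFA and Abx_SCFA rats in the 4-hundreds and all Abx and H2O rats in the 2-hundreds and 3-hundreds, so that number series and fatty acids cannot be told apart in comparisons across that line.

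No member passed an adjusted p of 0.05 in edgeR's quasi-likelihood test with Benjamini-Hochberg adjustment over all genes, in any of 6 comparisons. The share of all 12846 genes called was 0% in each of them. DESeq2 and limma-voom called none of the members either. At an unadjusted p below 0.05, 2 of 9 members stood out in Abx against H2O, where 8.79% of all genes did. In SCFA against H2O it was 1 of 9 members beside 13.8% of all genes. The count was 0 of 9 in Abx_SCFA against H2O (5.56% of all genes), in Abx_SCFA against Abx (3.19%) and in Abx_SCFA against SCFA (6.78%). In the interaction, which is the antibiotic effect with fatty acids less that without, it was 1 of 9 (7.85%). Split by direction, the shares of all genes higher and lower at that level were 3.26% and 5.53% in Abx against H2O, 8.2% and 5.58% in SCFA against H2O, 2.09% and 3.46% in Abx_SCFA against H2O, 1.85% and 1.34% in Abx_SCFA against Abx, 2.72% and 4.06% in Abx_SCFA against SCFA, and 2.83% and 5.01% in the interaction. The 3 comparisons with H2O share the H2O libraries. The median log2 fold change of the members was 0.04 in Abx against H2O, 0.06 in SCFA against H2O and 0.04 in Abx_SCFA against H2O, beside medians over all genes of -0.01, 0.00 and -0.01. All 9 members had a positive log2 fold change in Abx against H2O, where 47.7% of all genes did, with 7 of the 9 between 0.01 and 0.17. Within the 2-hundred series, however, the mean log2 difference of Abx minus H2O was negative for 6 of them, at -0.28 for Sst, -0.21 for Slc18a3, -0.13 for Pvalb, -0.09 for Nos1, -0.07 for Chat and -0.06 for Slc5a7. Within the 3-hundred series it was positive for these 6 and negative for Lhx6, at -0.16. Positive were 5 of 9 in SCFA against H2O (48.9% of all genes), 6 of 9 in Abx_SCFA against H2O (47.6%), 3 of 9 in Abx_SCFA against Abx (49.9%), 4 of 9 in Abx_SCFA against SCFA (45.5%) and 4 of 9 in the interaction (51.8%).

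**Figure D1:**
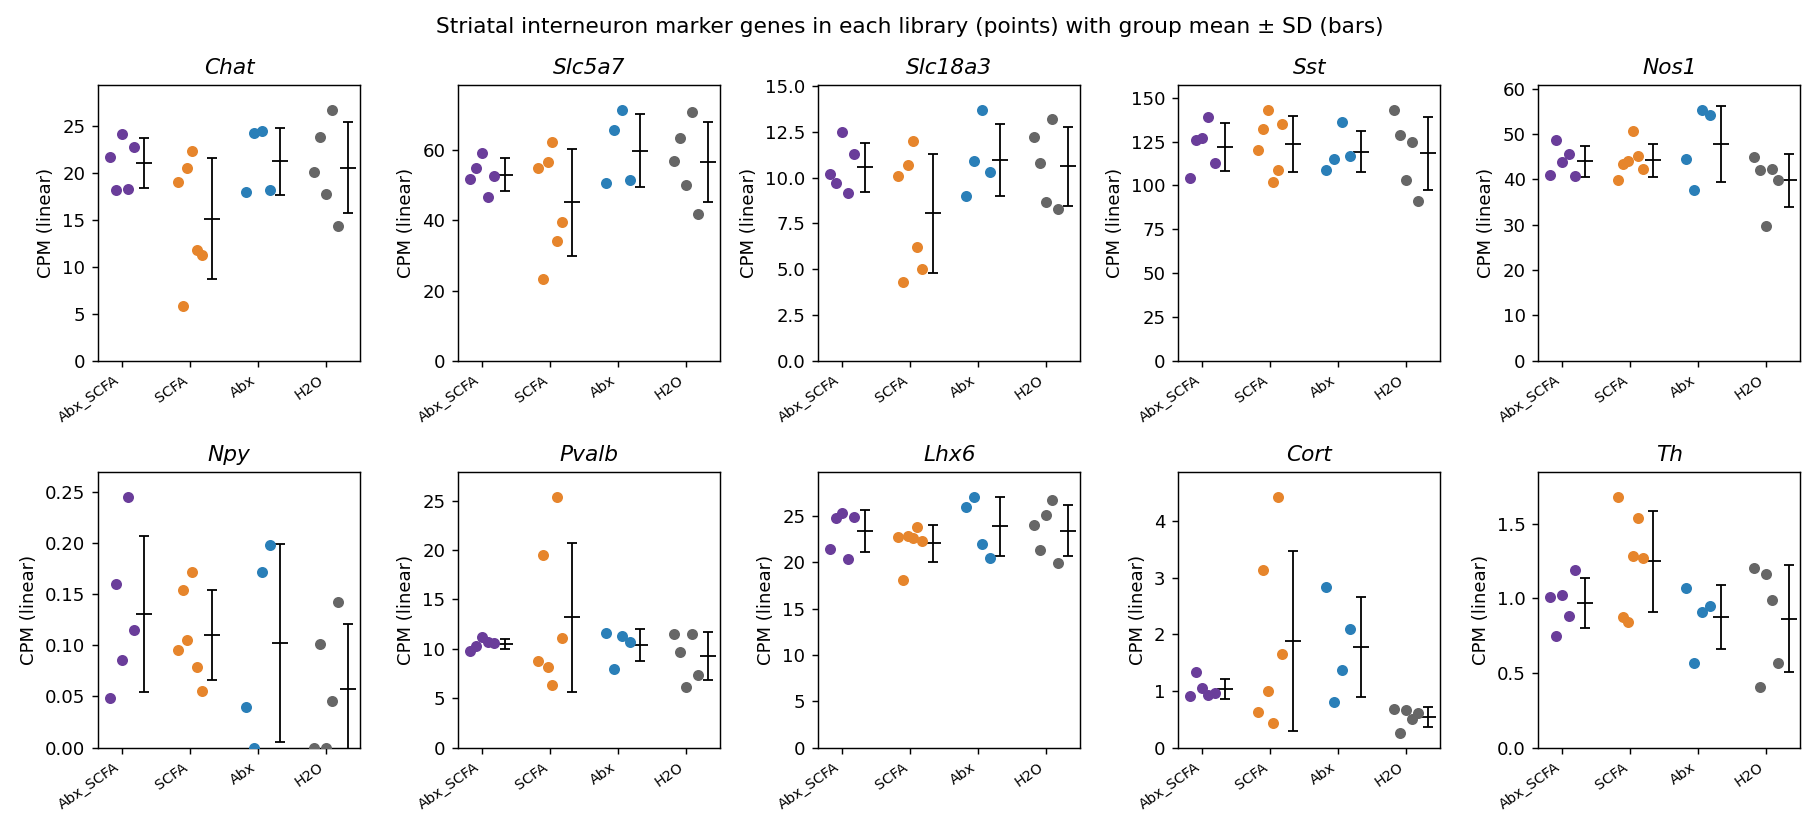
CPM on a linear axis of each of the 10 marker genes in each library (points) with the group mean and SD (bars, cut at 0), for Abx_SCFA (n = 5), SCFA (n = 6), Abx (n = 4) and H2O (n = 5). Chat, Slc5a7 and Slc18a3 have low SCFA libraries, Pvalb and Cort have high ones, and Sst, Nos1 and Lhx6 are close together.

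The cholinergic genes were lowest on average in the SCFA group, but no comparison passed the test. Chat had 21.7, 18.2, 24.1, 18.3 and 22.8 CPM in Abx_SCFA libraries, a lowest, median and highest of 5.87, 15.4 and 22.3 CPM in SCFA libraries, 18, 24.2, 24.5 and 18.2 CPM in Abx libraries, and 20.1, 23.8, 17.8, 26.7 and 14.4 CPM in H2O libraries. SCFA replicates 2, 5 and 6, at 5.87, 11.8 and 11.3 CPM, lay under all other libraries, and the other SCFA libraries lay within the range of the other groups. The group means were 21.0 ± 2.64 CPM in Abx_SCFA (SD, n = 5), 15.1 ± 6.44 CPM in SCFA (n = 6), 21.2 ± 3.60 CPM in Abx (n = 4) and 20.6 ± 4.85 CPM in H2O (n = 5). The log2 fold change of Chat in SCFA against H2O was -0.44 ± 0.25 (SE), with a 95% interval of -0.96 to 0.07 and an edgeR adjusted p of 0.440. The groups overlapped, and the interval spans no difference.

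Slc5a7 had 51.8, 55.0, 59.2, 46.6 and 52.8 CPM in Abx_SCFA libraries, a lowest, median and highest of 23.3, 47.2 and 62.4 CPM in SCFA libraries, 50.7, 65.8, 71.5 and 51.6 CPM in Abx libraries, and 57.1, 63.4, 50.1, 71.0 and 41.8 CPM in H2O libraries. The same SCFA libraries, replicates 2, 5 and 6, were the lowest of all 20. Slc18a3 averaged 10.6 ± 1.35 CPM in Abx_SCFA, 8.06 ± 3.26 CPM in SCFA, 11 ± 1.96 CPM in Abx and 10.6 ± 2.15 CPM in H2O libraries (SD), and the lowest values were again 4.32, 6.21 and 5.01 CPM in SCFA replicates 2, 5 and 6. In SCFA against H2O the log2 fold change was -0.33 ± 0.20 for Slc5a7 and -0.40 ± 0.22 for Slc18a3 (SE, edgeR adjusted p of 0.479 and 0.438). Without SCFA replicates 2 and 5 the log2 fold change was -0.16 for Chat, -0.08 for Slc5a7 and -0.16 for Slc18a3. In the remaining comparisons the log2 fold changes of these 3 genes lay between -0.17 and 0.47. The one farthest from 0 was that of Chat in Abx_SCFA against SCFA, at 0.47 ± 0.25 (SE, edgeR adjusted p = 0.735, 95% interval -0.04 to 0.99). With SCFA replicates 2 and 5 left out, the log2 fold change of Chat in that comparison was 0.20, that of Slc5a7 -0.01, against 0.23 with them, and that of Slc18a3 0.16, against 0.39 with them.

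The ratios among the cholinergic genes were steadier than the genes themselves. The ratio of Chat to Slc5a7, in CPM, ran from 0.252 in SCFA replicate 2 to 0.431 in Abx_SCFA replicate 5, with a median of 0.355. The SD of its log2 about the group means was 0.145, beside 0.467 for Chat and 0.360 for Slc5a7. Deviations of log2 CPM from the group means correlated across the 20 libraries with a Pearson's r of 0.97 and a Spearman's rho of 0.95 for Chat and Slc5a7, which share no locus. The permutation p of r was 1e-05, the smallest that 100000 permutations within groups can give, and 0.000225 after Benjamini-Hochberg adjustment over the 45 pairs of members, while the permutation p of rho was 2e-05. For Chat and Slc18a3, whose genes overlap, r was 0.93 (permutation p = 1e-05, adjusted 0.000225) and rho 0.94 (permutation p = 5e-05). For Slc5a7 and Slc18a3, r was 0.91 (permutation p = 3e-05, adjusted 0.00045) and rho 0.91 (permutation p = 7e-05).

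These relations did not rest on the extreme libraries. Without the 2 libraries farthest from the median of the first gene of each pair, r was 0.96, 0.91 and 0.88 for the pairs in the order above. Within the 11 libraries of the 4-hundred series r was 0.97, 0.95 and 0.92, and within the 9 libraries of the other series 0.99, 0.84 and 0.89. Chat and Sst, by contrast, had an r of 0.05 (permutation p = 0.841, adjusted 0.937) and a rho of 0.16 (permutation p = 0.551). That r pools unlike values, since it was -0.30 within the 4-hundred series and 0.73 within the other series. Sst with Slc18a3 likewise had an r of 0.12 (permutation p = 0.649, adjusted 0.863) and a rho of 0.22 (permutation p = 0.417), with -0.30 within the 4-hundred series and 0.88 within the others.

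**Figure D2:**
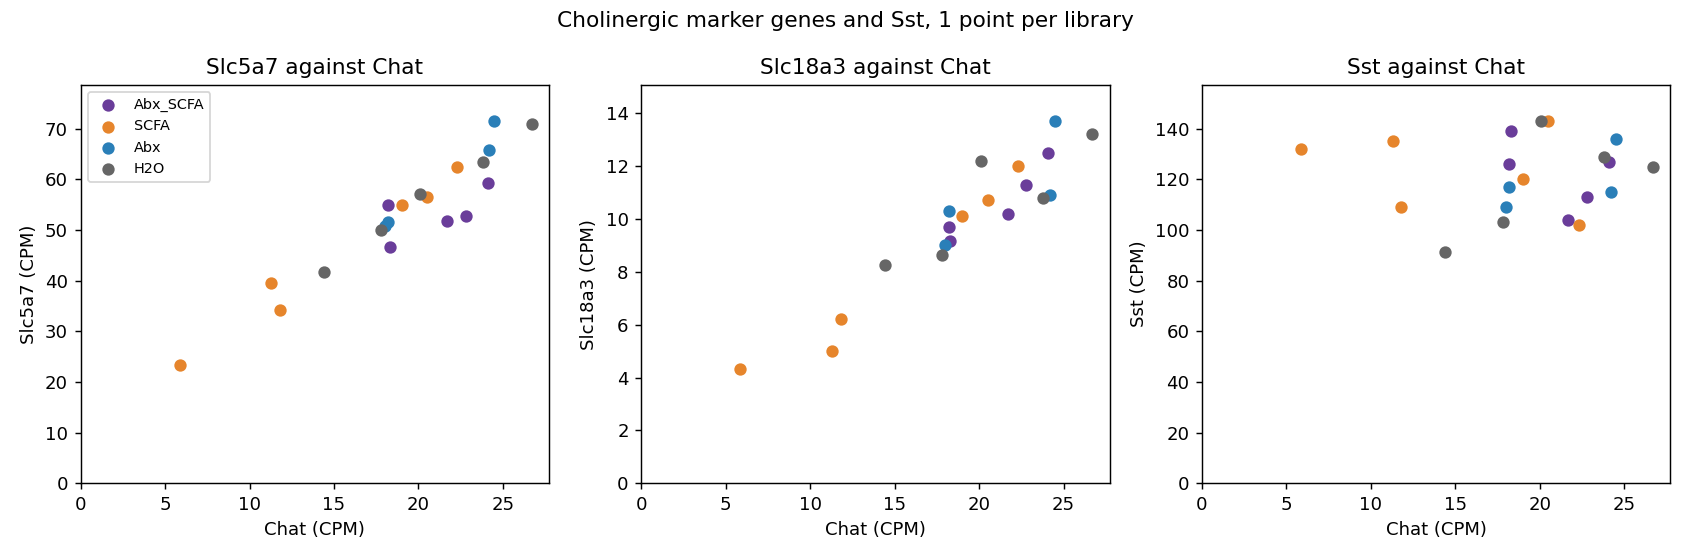
CPM of Slc5a7, Slc18a3 and Sst on the vertical axes against CPM of Chat on the horizontal axes, 1 point per library and 1 colour per group. Slc5a7 and Slc18a3 lie along a line with Chat, down to 5.87 CPM of Chat in SCFA replicate 2, and Sst shows no such line over the 20 libraries together.

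Genes whose pattern was most like the mean log2 CPM of Chat, Slc5a7 and Slc18a3 over the 20 libraries, among 12017 genes of at least 1 CPM, included Ecel1 (Pearson's r of 0.98), Slc17a8 (0.96), Slc10a4 (0.95) and Zar1 (0.91). Slc17a8 is the vesicular glutamate transporter that cholinergic interneurons also use, and Slc10a4 is a vesicle protein of cholinergic and aminergic neurons. The values are a description of these libraries, which share treatment and dissection. Of 9 further cholinergic neuron genes, none of which passed the adjusted test, 8 had a negative log2 fold change in SCFA against H2O, with a median of -0.40 beside 0.00 over all genes. At an unadjusted p below 0.05, 5 were lower and 1 was higher. Gbx2, Isl1 and Lhx8, transcription factors of the cholinergic lineage, had log2 fold changes of -1.17 ± 0.37, -0.71 ± 0.25 and -0.62 ± 0.26 (SE). Ngfr, the p75 neurotrophin receptor, had 0.85 ± 0.36. When SCFA replicates 2 and 5 were left out, the median was -0.18 with 2 genes lower and 0 higher at that level, and the values were -0.84 for Gbx2, -0.38 for Isl1, -0.33 for Lhx8 and 0.48 for Ngfr. In Abx_SCFA against SCFA 8 of the 9 were positive with a median of 0.35, and Slc10a4 (0.54 ± 0.18), Gbx2 (1 ± 0.37) and Ache, acetylcholinesterase (0.21 ± 0.099), had an unadjusted p below 0.05. Without these SCFA libraries the median was 0.11, with 0.31, 0.67 and 0.11 for these genes, none below that level. In Abx against H2O and in Abx_SCFA against H2O no gene of the list was, with medians of 0.05 and 0.03.

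Cort, the cortistatin gene, showed the widest spread of the 9 tested genes and the log2 fold changes farthest from 0. It had 0.914, 1.33, 1.06, 0.929 and 0.956 CPM in Abx_SCFA libraries, a lowest, median and highest of 0.427, 1.32 and 4.43 CPM in SCFA libraries, 2.84, 0.804, 1.37 and 2.10 CPM in Abx libraries, and 0.680, 0.252, 0.661, 0.496 and 0.614 CPM in H2O libraries. All Abx and all Abx_SCFA libraries lay above every H2O library, while the SCFA libraries overlapped the H2O range and included the highest values of all. No other member had groups that did not overlap in any of the 5 comparisons of 2 groups. Over all genes, 0.887% were higher without overlap in Abx than in H2O, and 0.669% in Abx_SCFA than in H2O. The shares higher and lower without overlap were 0.288% and 0.249% in SCFA against H2O, 0.732% and 0.467% in Abx_SCFA against Abx and 0.265% and 0.296% in Abx_SCFA against SCFA, and the shares lower were 1.57% in Abx and 0.755% in Abx_SCFA against H2O. The means were 1.04 ± 0.174 CPM in Abx_SCFA, 1.88 ± 1.59 CPM in SCFA, 1.78 ± 0.886 CPM in Abx and 0.541 ± 0.177 CPM in H2O libraries (SD). These are low levels, of 5 to 112 counts per library.

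The log2 fold change of Cort was 1.73 ± 0.55 (SE) in Abx against H2O, with a 95% interval of 0.57 to 2.88 and an edgeR adjusted p of 0.563. In SCFA against H2O it was 1.80 ± 0.52 (95% interval 0.72 to 2.88, edgeR adjusted p = 0.247), and in Abx_SCFA against H2O 0.94 ± 0.55 (95% interval -0.21 to 2.08, edgeR adjusted p = 0.815). The interaction was -2.59 ± 0.73 (95% interval -4.11 to -1.07, edgeR adjusted p = 0.622). Within the 2-hundred series the mean log2 difference of Abx minus H2O was 1.65 (2 libraries of each group), and within the 3-hundred series 1.39 (2 Abx and 3 H2O libraries). Cortical markers moved in the same direction in the same comparisons. In Abx against H2O 10 of 11 were positive with a median log2 fold change of 1.82, and in SCFA against H2O 10 of 11 with a median of 2.61, beside -0.01 and 0.00 over all genes. Their interaction was negative in 10 of 11 with a median of -2.95. With the mean log2 CPM of the cortical markers (the cortical score) as a covariate, the log2 fold change of Cort was 0.40 in Abx against H2O, 0.09 in SCFA against H2O and -0.69 in the interaction, none at an unadjusted p below 0.05. With a score of 12 medium spiny neuron markers as the covariate, added after the data were seen, these values were 1.61, 0.47 and -1.06. Those in Abx against H2O and in the interaction were at an unadjusted p below 0.05. In Abx_SCFA against H2O the value was -0.20 with the cortical score and 1.02 with the medium spiny score, the latter at that level. Without SCFA replicates 2 and 5, and with no covariate, the log2 fold change of Cort was 0.75 in SCFA against H2O, no longer at an unadjusted p below 0.05. In the interaction it was -1.54, still below that level. In Abx_SCFA against H2O it stayed at 0.94 and came to an unadjusted p below 0.05. In Abx_SCFA against Abx the log2 fold change of Cort was -0.79 ± 0.51 (SE, 95% interval -1.87 to 0.28, edgeR adjusted p = 0.999). Without SCFA replicates 2 and 5 it was -0.80 there, at an unadjusted p below 0.05. No member passed the adjusted test in these fits. In Abx_SCFA against SCFA the log2 fold change of Cort was -0.86 ± 0.47 (SE, 95% interval -1.85 to 0.12, edgeR adjusted p = 0.735), and without these libraries it turned to 0.19. The cortical markers had medians of 1.14 in SCFA against H2O and -1.51 in the interaction without them. In Abx against H2O, oligodendrocyte markers such as Mbp, a main protein of myelin, were also lower, with 5 of 6 at an unadjusted p below 0.05, a median of -0.64 and no gene past the adjusted test. The part of oligodendrocytes in the result for Cort was not tested, and that of cortical or medium spiny neurons was not tested beyond these covariates.

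**Figure D3:**
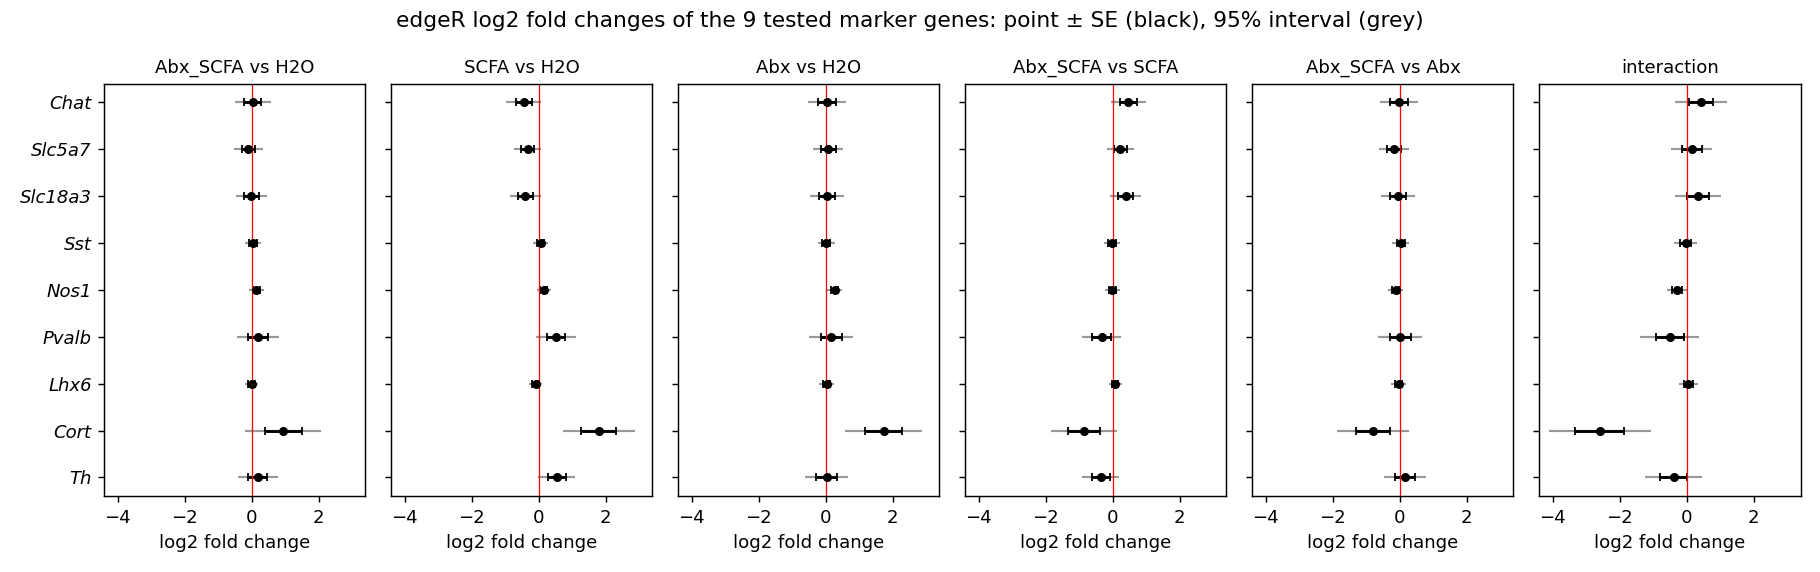
edgeR log2 fold changes of the 9 tested marker genes in each of the 6 comparisons, as a point with its SE (black) and 95% interval (grey), and a line at 0. The intervals of Cort lie to the right of 0 in SCFA and in Abx against H2O and to the left of 0 in the interaction, while that of Nos1 clears 0 in Abx against H2O.

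The peptide gene Sst differed little between groups. It had 104, 126, 127, 139 and 113 CPM in Abx_SCFA libraries, a lowest, median and highest of 102, 126 and 143 CPM in SCFA libraries, 109, 115, 136 and 117 CPM in Abx libraries, and 143, 129, 103, 125 and 91.2 CPM in H2O libraries. The groups overlapped fully, and the highest library held 1.57 times the level of the lowest. Its log2 fold change against H2O was 0.04 (95% interval -0.20 to 0.28) in Abx_SCFA, 0.06 (-0.17 to 0.29) in SCFA and 0.01 (-0.24 to 0.27) in Abx. A difference of more than 0.29 on the log2 scale in either direction thus lay outside all 3 intervals.

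Nos1 had 41.0, 48.7, 43.9, 45.5 and 40.7 CPM in Abx_SCFA libraries, a lowest, median and highest of 39.8, 43.7 and 50.7 CPM in SCFA libraries, 44.6, 37.6, 55.3 and 54.1 CPM in Abx libraries, and 44.9, 42.1, 29.7, 42.3 and 39.9 CPM in H2O libraries. Abx replicates 3 and 4 were the highest of all 20 libraries and H2O replicate 3 the lowest, and the groups overlapped. The log2 fold change in Abx against H2O was 0.27 ± 0.11 (SE, 95% interval 0.03 to 0.50, edgeR adjusted p = 0.563), with group means of 47.9 ± 8.37 CPM in Abx and 39.8 ± 5.90 CPM in H2O libraries (SD). This difference was not the same within the number series. In the 3-hundred series the means were 54.7 CPM in Abx and 37.3 CPM in H2O libraries, a mean log2 difference of 0.57, and in the 2-hundred series 41.1 CPM in Abx and 43.5 CPM in H2O libraries, a mean log2 difference of -0.09. The unadjusted p stayed under 0.05 in 17 of 20 fits that each left out 1 library, and was farthest above it without Abx replicate 3. With the cortical score, the mean log2 CPM of the cortical markers, as a covariate, the log2 fold change was 0.18 and its unadjusted p was above 0.05. In the RefSeq table Nos1 overlaps 2 other genes, LOC120095990 and LOC120095991.

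Npy was close to the limit of detection in every library, although the interneuron type it defines was represented by Sst and Nos1. It had 43 counts in all 20 libraries together, with 0 counts in 3 libraries and at most 0.245 CPM, in Abx_SCFA replicate 4. In 17 of 20 libraries it was at or under 3 counts, the upper limit that a count of 0 allows, which corresponded to 0.115 to 0.171 CPM depending on the library. Summed counts were 14 in Abx_SCFA, 14 in SCFA, 9 in Abx and 6 in H2O libraries, from 5, 6, 4 and 5 rats. A difference between groups was not detectable at this depth, and how the counting treated this gene was not tested.

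Of 7 other genes of the somatostatin and nitric oxide interneurons, 6 had a positive log2 fold change in SCFA against H2O, with a median of 0.29 and none past the adjusted test. Crhbp, which binds corticotropin-releasing hormone, had 0.92 ± 0.28, Satb1, a chromatin organiser, 0.80 ± 0.25, and Elfn1, a postsynaptic adhesion protein, 0.29 ± 0.12 (SE, unadjusted p below 0.05). The median without SCFA replicates 2 and 5 was 0.02 and no gene had an unadjusted p below 0.05, with 0.51 for Crhbp, 0.47 for Satb1 and 0.09 for Elfn1. In Abx against H2O and in Abx_SCFA against H2O none of the 7 had an unadjusted p below 0.05 with all libraries in the fit. Without SCFA replicates 2 and 5 in the fit, 3 of the 7 were higher at that level in Abx against H2O and 1 in Abx_SCFA against H2O. None of these passed the adjusted test. Genes most like Sst with Nos1 across the libraries were Klhl8, Cygb, Nefm, Rab3b and Spon1, all at a Pearson's r of 0.67 or 0.68, well below the values of the cholinergic genes. With Npy added to the target, Klhl8 (0.71), Galk1 (0.69), Acvr2b (0.67), Mrpl37 (0.65) and Lrfn3 (0.65) were most alike. Npy had only 0 to 5 counts per library. Both lists hold the highest values among 12018 genes and were not tested.

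Pvalb, the parvalbumin gene, was most even in the Abx_SCFA group and most scattered in the SCFA group. It had 9.82, 10.3, 11.2, 10.7 and 10.6 CPM in Abx_SCFA libraries, a lowest, median and highest of 6.32, 9.96 and 25.4 CPM in SCFA libraries, 11.6, 7.95, 11.3 and 10.7 CPM in Abx libraries, and 11.5, 9.67, 6.17, 11.5 and 7.33 CPM in H2O libraries. SCFA replicates 5 and 2, at 25.4 and 19.5 CPM, were above all others, and the other SCFA libraries lay between 6.32 and 11.1 CPM. The SD was 0.505 CPM in Abx_SCFA, 7.55 CPM in SCFA, 1.69 CPM in Abx and 2.42 CPM in H2O libraries. The log2 fold change in SCFA against H2O was 0.52 ± 0.28 (SE, 95% interval -0.08 to 1.11, edgeR adjusted p = 0.432). Without SCFA replicates 2 and 5 it was -0.11, on the other side of 0. In Abx_SCFA against SCFA it was -0.33 ± 0.28 (SE, edgeR adjusted p = 0.818) with these libraries and 0.30 without them.

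Lhx6 had the smallest spread of the 9 tested genes. It averaged 23.4 ± 2.28 CPM in Abx_SCFA, 22.1 ± 2.02 CPM in SCFA, 23.9 ± 3.14 CPM in Abx and 23.4 ± 2.78 CPM in H2O libraries (SD), and all log2 fold changes lay between -0.09 and 0.08. SCFA replicate 2 had the lowest level of all, 18.1 CPM, beside 22.3 to 23.8 CPM in the other SCFA libraries. Lhx6 overlaps another gene, LOC134486080, in the RefSeq table. The ratio of Pvalb to Lhx6, in CPM, ran from 0.246 in H2O replicate 3 to 1.08 in SCFA replicate 2, with a median of 0.445. The SD of its log2 about the group means was 0.536, beside 0.493 for Pvalb and 0.161 for Lhx6. Their deviations from the group means did not go together, with an r of -0.11 (permutation p = 0.666, adjusted 0.863) and a rho of 0.01. The mean log2 CPM of Pvalb and Lhx6 therefore follows mainly Pvalb. Genes most like that mean were Slc35g2 (Pearson's r of 0.88), Pnoc, the nociceptin precursor (0.85), Fam3c (0.84), Nefh, the heavy neurofilament of large axons (0.84), and Vsnl1 (0.83).

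Of 8 further parvalbumin interneuron genes that could be tested, 4 had a positive and 4 a negative log2 fold change in SCFA against H2O, with none past the adjusted test. Kcnc2, a potassium channel of fast-spiking cells, had 1.19 ± 0.39, Vwc2 0.45 ± 0.17 and Syt2, a fast calcium sensor of release, -0.33 ± 0.14 (SE, unadjusted p below 0.05). The values without SCFA replicates 2 and 5 were 0.42, 0.17 and -0.31, and Syt2 alone of the 8 had an unadjusted p below 0.05. Erbb4, a neuregulin receptor, had -0.34 ± 0.14 in Abx_SCFA against H2O and -0.40 ± 0.14 in Abx_SCFA against SCFA, where it was -0.23 without those SCFA libraries. Of 7 transcription factors of the interneuron lineages, 2 were higher and 1 lower at an unadjusted p below 0.05 in SCFA against H2O, among them Nkx2-1 (-0.57 ± 0.23) and Npas1 (0.47 ± 0.22), and Prox1 was lower in Abx_SCFA against H2O (-0.51 ± 0.19). In SCFA against H2O without SCFA replicates 2 and 5 none of the 7 had an unadjusted p below 0.05, with -0.28 for Nkx2-1 and 0.12 for Npas1.

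Th was low everywhere, with 8 to 39 counts per library. It had 1.01, 0.746, 1.02, 0.880 and 1.19 CPM in Abx_SCFA libraries, a lowest, median and highest of 0.839, 1.27 and 1.68 CPM in SCFA libraries, 1.07, 0.568, 0.911 and 0.951 CPM in Abx libraries, and 1.2, 0.403, 1.16, 0.991 and 0.567 CPM in H2O libraries. The groups overlapped. The log2 fold change in SCFA against H2O was 0.54 ± 0.27 (SE, edgeR adjusted p = 0.386, 95% interval -0.03 to 1.1). Other catecholamine genes set the context. Slc6a3, the dopamine transporter of midbrain dopamine neurons, had 0 to 13 counts per library, and Dbh, the noradrenaline-synthesising enzyme, 0 to 12 counts. Slc18a2, the vesicular monoamine transporter, had 10.2 to 13.7 CPM and Ddc, the decarboxylase that follows Th in the pathway, 9.10 to 21.2 CPM. Of this list 3 genes could be tested, and none had an unadjusted p below 0.05 in any comparison. Genes most like Th were Ppp2r3b (Pearson's r of 0.74), Plcg2 (0.67), Tmem204 (0.60), Eif4e3 (0.60) and Bckdk (0.59). These are the highest values among 12019 genes and were not tested.

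Across libraries the 10 genes thus varied to very different degrees. The SD of log2 CPM about the group means was 0.80 for Cort, which 97.9% of all tested genes did not exceed. It was 0.49 for Pvalb, 0.46 for Chat, 0.42 for Th, 0.40 for Slc18a3 and 0.36 for Slc5a7, and 0.20 for Sst, 0.18 for Nos1 and 0.16 for Lhx6, beside a median of 0.16 over all genes. Among genes of like mean level, the SD of Cort was above that of 91.3% of 583 genes and the SD of Th above that of 34.8% of 574 genes. That share was 97% for Chat, 96.6% for Slc5a7, 95.3% for Pvalb and 92.1% for Slc18a3. It was 85.2% for Sst, 78% for Nos1 and 61.3% for Lhx6.

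Of the 45 pairs of members, 4 had a permutation p below 0.05 after adjustment, and the fourth beside the cholinergic ones was Slc5a7 with Cort. That pair ran in opposite directions, with an r of -0.78 (permutation p = 0.0041, adjusted 0.0461) and a rho of -0.77 (permutation p = 0.0034). Without SCFA replicates 2 and 5, which are also the libraries farthest from the median, r was -0.65 and its adjusted p 0.113, so the call rests on those libraries. The direction did not, since r was still negative without them and was -0.63 within the other series, which hold neither. Within the 4-hundred series, which holds both, r was -0.83. Chat and Cort had an r of -0.76 (permutation p = 0.00604, adjusted 0.052) and a rho of -0.82 (permutation p = 0.00175). For Chat and Cort r was -0.71 without SCFA replicates 2 and 5, -0.79 within the 4-hundred series and -0.65 within the others. Pvalb and Cort had an r of 0.77 (permutation p = 0.00693, adjusted 0.052) and a rho of 0.59 (permutation p = 0.026), and without the same libraries r was 0.41. Within the 4-hundred series r was 0.96 for this pair and within the other series 0.18. Sst and Nos1, which mark one cell type, had an r of 0.35 (permutation p = 0.197, adjusted 0.494) and a rho of 0.34 (permutation p = 0.163). Without the 2 libraries farthest from the median of Sst, H2O replicate 5 and SCFA replicate 4, r was 0.64 and its adjusted p 0.0702. Within the 4-hundred series r was -0.07 and within the others 0.57.

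**Figure D4:**
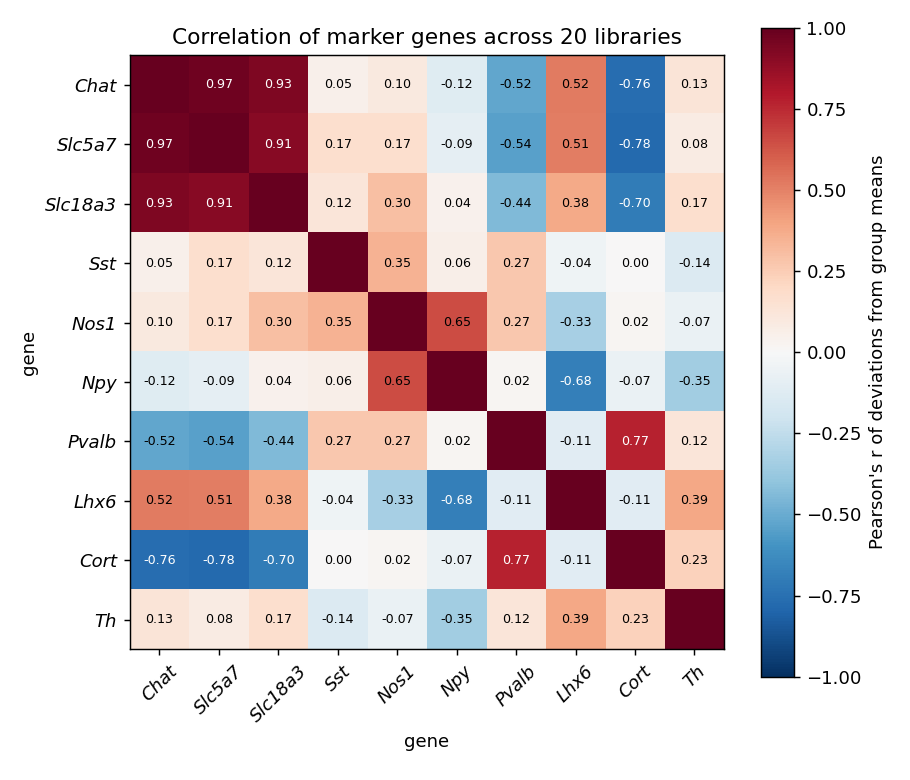
Pearson's r between the 10 marker genes, from deviations of log2 CPM from group means over 20 libraries, with the value in each cell and colour from -1 (blue) to 1 (red). The block of Chat, Slc5a7 and Slc18a3 stands at 0.91 to 0.97, and Cort is opposite to Slc5a7 at -0.78 and to Chat at -0.76.

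The members also differed in their relation to the cortical score, tested in the same way over the 10 members. Cort went with the score, with an r of 0.66 (permutation p = 0.00925, adjusted 0.0462) and a rho of 0.60 (permutation p = 0.0224). Slc5a7 ran against it, with an r of -0.67 (permutation p = 0.00859, adjusted 0.0462) and a rho of -0.71 (permutation p = 0.00544). Chat ran the same way, with an r of -0.62 (permutation p = 0.0164, adjusted 0.0548) and a rho of -0.71 (permutation p = 0.00709). So did Slc18a3, with an r of -0.60 (permutation p = 0.0262, adjusted 0.0654) and a rho of -0.62 (permutation p = 0.0194). Sst had an r of -0.15 (permutation p = 0.601, adjusted 0.601) and a rho of 0.01 (permutation p = 0.980), and r was 0.19 within the 4-hundred series and -0.46 within the others. Without the 2 libraries farthest from the median score, H2O replicates 1 and 3, r was 0.86 for Cort and -0.81 for Slc5a7. Without SCFA replicates 2 and 5 r was 0.43 for Cort and -0.60 for Slc5a7, and no member had an adjusted p below 0.05. Within the 4-hundred series r was 0.91 for Cort and -0.79 for Slc5a7, and within the other series 0.32 and -0.55. Pvalb had an r of 0.59 (permutation p = 0.0343, adjusted 0.0685) and a rho of 0.55 (permutation p = 0.0375), with 0.89 in the 4-hundred series, 0.12 in the others and 0.24 without SCFA replicates 2 and 5.

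**Figure D5:**
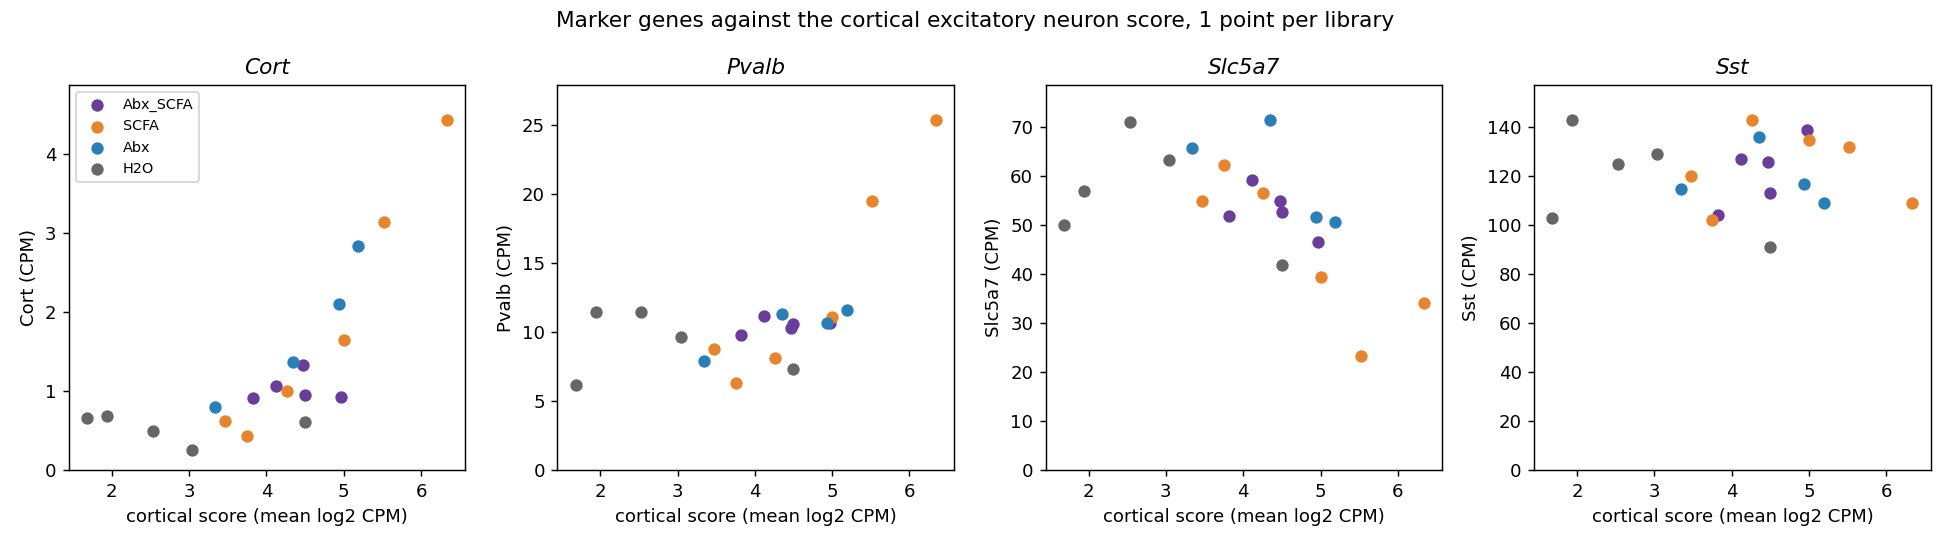
CPM of Cort, Pvalb, Slc5a7 and Sst against the cortical score, the mean log2 CPM of 11 cortical excitatory neuron markers, 1 point per library and 1 colour per group. SCFA replicates 2 and 5, at scores of 5.52 and 6.34, have the highest Cort and Pvalb and low Slc5a7, and Sst is spread over all scores.

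With that score entered into the fit, the log2 fold changes of Chat, Slc5a7 and Slc18a3 in SCFA against H2O were 0.10, 0.14 and 0.08, on the other side of 0 from the values without it. In Abx against H2O they were 0.55, 0.52 and 0.49, each at an unadjusted p below 0.05 and none past the adjusted test. A score of 12 medium spiny neuron markers, added after the data were seen, went the other way from the cortical score. Its r was 0.79 with Slc5a7 (permutation p = 0.00201, adjusted 0.0100; rho 0.76, permutation p = 0.00162), 0.72 with Chat (permutation p = 0.0118, adjusted 0.0395; rho 0.70, permutation p = 0.00488) and -0.83 with Cort (permutation p = 0.00177, adjusted 0.0100; rho -0.74, permutation p = 0.00232). Without SCFA replicates 2 and 5, again the farthest libraries, these were 0.58, 0.51 and -0.58, with an adjusted p of 0.185 each. Medium spiny markers were negative in 12 of 12 in SCFA against H2O, with a median log2 fold change of -0.35, and positive in 12 of 12 in Abx_SCFA against SCFA, with a median of 0.38. These medians were -0.11 and 0.15 without SCFA replicates 2 and 5. The part of either cell class in the cholinergic values was not tested beyond these covariates.

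No gene of the lists that follow passed the adjusted test. The enzymes and transporter of GABA, which medium spiny neurons also use, were all lower in SCFA against H2O at an unadjusted p below 0.05, with log2 fold changes of -0.54 ± 0.16 for Gad2, -0.36 ± 0.14 for Slc32a1 and -0.23 ± 0.11 for Gad1 (SE). Leaving out SCFA replicates 2 and 5, they were -0.38, -0.16 and -0.15, with only Gad2 at that level. Of 9 genes of other GABAergic interneuron classes, 4 were higher and 2 lower at that level in SCFA against H2O. Cck, the cholecystokinin gene, had 2.44 ± 0.81, Vip, vasoactive intestinal peptide, 2.02 ± 0.66, Calb2, calretinin, 0.56 ± 0.20 and Htr3a, a serotonin receptor channel, -0.30 ± 0.11. The 4 values were 1.55, 0.92, 0.37 and -0.16 without SCFA replicates 2 and 5, none of them at that level. Cck is also abundant in cortical excitatory neurons. It had 2.10 ± 0.85 in Abx against H2O, 1.74 ± 0.82 in Abx_SCFA against H2O and -2.80 ± 1.1 in the interaction, where it was -1.92 without those SCFA libraries.

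Receptors for the transmitters of these interneurons were tested for 12 genes. In SCFA against H2O, 4 were higher and 1 lower at an unadjusted p below 0.05. The somatostatin and cortistatin receptors Sstr1 and Sstr3 had log2 fold changes of 1.87 ± 0.53 and 1.47 ± 0.54, the nicotinic receptor subunit Chrna4 had 1.85 ± 0.57, and the neuropeptide Y receptor Npy2r had -0.56 ± 0.16 (SE). Sstr1 had 0.80, Sstr3 0.77, Chrna4 0.96 and Npy2r -0.37 without SCFA replicates 2 and 5, and Npy2r alone of the 12 was at that level. In Abx against H2O, Sstr3 had 1.47 ± 0.58, Chrna4 1.39 ± 0.61 and Chrm2, a muscarinic receptor, 0.68 ± 0.29. In Abx_SCFA against H2O none had an unadjusted p below 0.05. Without SCFA replicates 2 and 5 in the fit, 5 of the 12 were higher and 1 lower at that level in Abx against H2O, and 1 was higher in Abx_SCFA against H2O. With all libraries the interaction was negative for Sstr1 (-2.10 ± 0.77), Chrna4 (-2.20 ± 0.81) and Sstr3 (-2 ± 0.78) and positive for Npy2r (0.77 ± 0.24). Without those SCFA libraries these were -1.03 for Sstr1, -1.31 for Chrna4, -1.30 for Sstr3 and 0.58 for Npy2r, the last alone at an unadjusted p below 0.05. These receptor values share the direction of the cortical markers where they are positive in SCFA or Abx against H2O, and the part of cortical cells in them was not tested.

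Other cell types were followed with short lists, again with no gene past the adjusted test. Of 6 septal, pallidal and subcortical excitatory markers, 4 were higher and 1 lower at an unadjusted p below 0.05 in SCFA against H2O, and 3 were higher in Abx against H2O. Slc17a6, the vesicular glutamate transporter of subcortical neurons, had log2 fold changes of 2.73 ± 0.78 in SCFA and 2.13 ± 0.83 in Abx against H2O (SE). It had 1.87 in SCFA against H2O without SCFA replicates 2 and 5, and 2 of the 6 were higher at that level. Of 5 astrocyte markers, 2 were lower at that level in Abx against H2O, among them the water channel gene Aqp4 at -0.30 ± 0.10, and 0 were in SCFA against H2O. None of 5 microglia markers had an unadjusted p below 0.05 in any comparison. The part of these cells in the values of the interneuron genes was not tested.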

How the data were processed

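RNA was measured in nucleus accumbens tissue of 20 rats, 1 library each. The labels give RNeasy extraction, SMARTer cDNA and polyA RNA. The authors deposited 1 table of raw counts per gene symbol, whole numbers with a different total in each library. The submitters' processing notes list, without roles, STAR 2.4.0, FastQC 0.11.6 and limma, on Rnor_6.0. No source used here names the counting tool, annotation, strand setting or trimming, so that reads of overlapping or antisense genes cannot be assigned with certainty. Of the symbols, 1822 were at 0 in every library.

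Groups came from the treatment labels, and replicate numbers follow the order of deposition and only name libraries. The genes, the 14 lists and the tests were chosen with earlier results of these data known. Nothing says whether rats were handled separately beyond their numbers, so p-values measure the spread between these libraries. The named genes are all members and, of each other list and comparison, at most 4 genes with the smallest unadjusted p below 0.05, plus 5 marker genes for their levels and the 5 genes most like each target. To limit length not all of these are printed, and a few are not reported here.

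Counts were tested in edgeR 4.0.16 (R 4.3.3) by the robust quasi-likelihood F test after TMM scaling. All 20 libraries entered 1 model of 4 groups with 16 residual degrees of freedom. The filter was filterByExpr (at least 10 counts in a library of median size, 15 in total). P-values were adjusted by Benjamini-Hochberg over all tested genes, with calls at 0.05. Standard errors were derived from the F statistic. CPM was computed from TMM-scaled totals, and its log2 with a prior count of 2. Correlations used deviations from group means and 100000 two-sided permutations within groups. The test was checked on simulated counts. Alternatives were limma 3.58.1, DESeq2 1.42.0, other scalings, no filter, covariates and libraries left out. Floors of 3 counts and intervals cover counting error or the spread between libraries only, since the labels name no molecular identifiers.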

Additional observations from a re-analysis of the deposited data

Results flagged for a closer look

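Lhx6 in SCFA replicate 2 stood at 18.1 CPM, away from the other SCFA libraries at 22.3 to 23.8 CPM. The gap to its nearest neighbour was 0.741 of the range of the group, above the critical value of 0.625 for 6 samples. Chance flags about 1 in 20 groups, and 36 combinations of gene and group were looked at. The same library had the lowest Chat, Slc5a7 and Slc18a3 of all.

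For Cort, the difference between the antibiotic effects with and without fatty acids was -2.59 on the log2 scale, made up of -0.86 ± 0.47 (SE) for Abx_SCFA against SCFA and 1.73 ± 0.55 (SE) for Abx against H2O. The interaction term of edgeR had an unadjusted p below 0.05 and an adjusted p of 0.622, so it fails the correction. Every Abx library lay above the H2O mean and every Abx_SCFA library below the SCFA mean of 1.88 CPM, to which SCFA replicates 2 and 5 contributed 3.14 and 4.43 CPM. The other SCFA libraries, at 0.427 to 1.65 CPM, enclose the Abx_SCFA range of 0.914 to 1.33 CPM. Without replicates 2 and 5 the value for Abx_SCFA against SCFA was 0.19 and that of the interaction -1.54. With the cortical score as a covariate these were -0.29 and -0.69, and with the medium spiny score 0.55 and -1.06.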

How the results depend on the processing

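No paired analysis was possible because the rat numbers are not shared between groups. No member was called under any alternative run, in any comparison. Counts of members at an unadjusted p below 0.05 moved as follows, and the cause was not tested. For Abx against H2O the count was 2, and 1 with only those groups in the fit and 3 with the cortical score, which are Chat, Slc5a7 and Slc18a3 in place of Nos1 and Cort. For SCFA against H2O it was 1, and 4 with limma-voom, 0 without SCFA replicates 2 and 5, 0 with the cortical score and 0 with the medium spiny score as covariate. For Abx_SCFA against H2O it was 0, and 1 with only those groups, without SCFA replicates 2 and 5, and with either score. For Abx_SCFA against Abx it was 0, and 1 with only those groups and without SCFA replicates 2 and 5. For Abx_SCFA against SCFA it was 0, and 1 with DESeq2, 2 with limma-voom, 2 with quality weights and 1 with the cortical score. For the interaction it was 1, and 2 with quality weights and 0 with the cortical score.

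Leaving out 1 library at a time gave 1 to 2 members for Abx against H2O, 1 to 5 for SCFA against H2O (5 without SCFA replicate 3), 0 to 0 for Abx_SCFA against H2O and against Abx, 0 to 3 for Abx_SCFA against SCFA (3 without SCFA replicate 4) and 1 to 2 for the interaction. Over all genes the counts at an unadjusted p below 0.05 were 626 to 1466 for Abx against H2O and 1182 to 2328 for SCFA against H2O. For Abx_SCFA they were 419 to 1174 against H2O, 247 to 689 against Abx and 480 to 1535 against SCFA. The interaction had 695 to 1423. The log2 fold change of Cort was 1.41 to 1.97 in Abx against H2O, 1.32 to 2.01 in SCFA against H2O and -2.83 to -2.12 in the interaction in those fits. Correlations with the cortical score at an adjusted p below 0.05 numbered 2, and 4 without the 2 farthest libraries, 0 without SCFA replicates 2 and 5 and 0 with a prior count of 0.5.

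Over all genes, DESeq2 called 1 gene in Abx against H2O, 10 in SCFA against H2O, 1 in Abx_SCFA against H2O and 3 in Abx_SCFA against SCFA, where edgeR called 0. The count of all genes at an unadjusted p below 0.05 in SCFA against H2O was 1770, and 336 with the medium spiny score as covariate. Depth limits Npy, Th and Cort, which have few counts.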
